A study of Mus musculus with 32 samples.

Results

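The SPARC family is a small group of secreted matricellular proteins, and its 8 mouse genes Smoc1, Smoc2, Sparc, Sparcl1, Spock1, Spock2, Spock3 and Fstl1 were followed here across spinal astrocyte and whole cord libraries. The members were the 8 of 55938 genes in the deposited count table whose Ensembl identifiers carry these symbols. Smoc1 was chosen by a measured value, its higher level in astrocyte RNA 3 weeks after fracture, so the values of that comparison are given as a description, with no test. The other 7 were taken as its family.

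All mice carried Aldh1l1-CreER with Rpl22-HA (the sample labels spell the driver Aldhl1l-CreER), so controls and injured mice shared the same alleles. Aldh1l1-CreER is a tamoxifen-inducible recombinase driven by an astrocyte promoter, and Rpl22-HA gives recombined cells a ribosomal protein with an HA tag. Trap libraries held RNA bound to tagged ribosomes pulled down from homogenised lumbar spinal cord, and Input libraries held RNA of the homogenate from all cell types. Female and male mice were uninjured, or were sampled 3, 5 or 7 weeks after a fracture that serves as a model of complex regional pain syndrome. Each combination of sex and state had 3 Trap libraries and 1 Input library, 24 and 8 in all. The sources used here give neither ages nor the tamoxifen schedule. Nothing in the labels ties each library to its own animal, and p-values therefore reflect only library-to-library spread, which may be technical. The pull-down depends on where the driver was active, and in these bulk samples fewer cells of a type and less RNA per cell cannot be told apart.

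Matricellular proteins sit in the extracellular matrix and alter how cells respond to it, rather than building its scaffold. Family members share a follistatin-like domain, and most carry an extracellular calcium-binding domain. In the nervous system Sparcl1, also named hevin, is an astrocyte protein that bridges neurexins and neuroligins and promotes synapse formation, while Sparc counters hevin and binds collagens. Smoc1 and Smoc2 are basement membrane glycoproteins, with Smoc1 known as a modulator of BMP signalling. The Spock genes encode testicans, proteoglycans of the brain matrix, and Fstl1 encodes a secreted glycoprotein that binds BMP ligands.

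Trap libraries held 17124034 to 23189228 counts and Input libraries 17981133 to 22907909. All levels are CPM, counts scaled to a common library total with TMM factors over the 32 libraries, unless a scale per kilobase is named. All 12 astrocyte markers were higher in Trap than in Input (edgeR quasi-likelihood test, Benjamini-Hochberg adjusted p under 0.05), and all 10 neuron, all 10 oligodendrocyte, all 10 microglia and all 10 endothelial markers were lower. Other lists went the other way or divided: 7 of 7 blood cell genes tested were higher in Trap (median sum 1419 CPM against 257 in Input), 6 of 8 ependymal markers were higher and 2 lower (53.7 against 37.1), and 3 of 12 fibroblast and mural markers were higher and 9 lower (280.4 against 98.7). Schwann cell markers were lower in 5 and higher in 1 of the 8 tested. Of 12 markers of oligodendrocyte precursors (OPCs) 7 were lower, including the defining receptor Pdgfra at a median of 2.77 CPM in Trap against 41.8 in Input, and 5 were higher, including Bcan and Olig1. A pair of Trap libraries stood apart from the rest. Male 7 weeks replicate 2 had the lowest median correlation with the other Trap libraries (0.963 over 10562 genes), and female 3 weeks replicate 3 the next lowest (0.978), with the lowest astrocyte marker sum (50884 CPM) and the highest neuron marker sum (941 CPM). Results that move without them are given both ways.

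The family split evenly between the fractions, with 4 genes higher in Trap and 4 lower. Sparc and Sparcl1 were the most enriched, at 10.8-fold and 8.11-fold, followed by Smoc1 at 2.60-fold and Fstl1 at 1.25-fold. Spock1 was the most depleted, 23.6-fold lower in Trap, followed by Spock3 at 7.20-fold, Spock2 at 4.08-fold and Smoc2 at 1.53-fold lower. All 8 passed the test, but so did 88.0% of the 16804 genes tested (43.8% higher and 44.2% lower). The count of calls is thus near the background, and only the sizes separate the members. Smoc2 lost its call with the replicate number as a block, a fit that sets only Trap replicate 1 against Input. Sparc ranked 79 of 16804 for enrichment and Spock1 ranked 93 from the other end. The direction was the same in each of the 8 combinations of sex and state for every member.

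**Figure D1:**
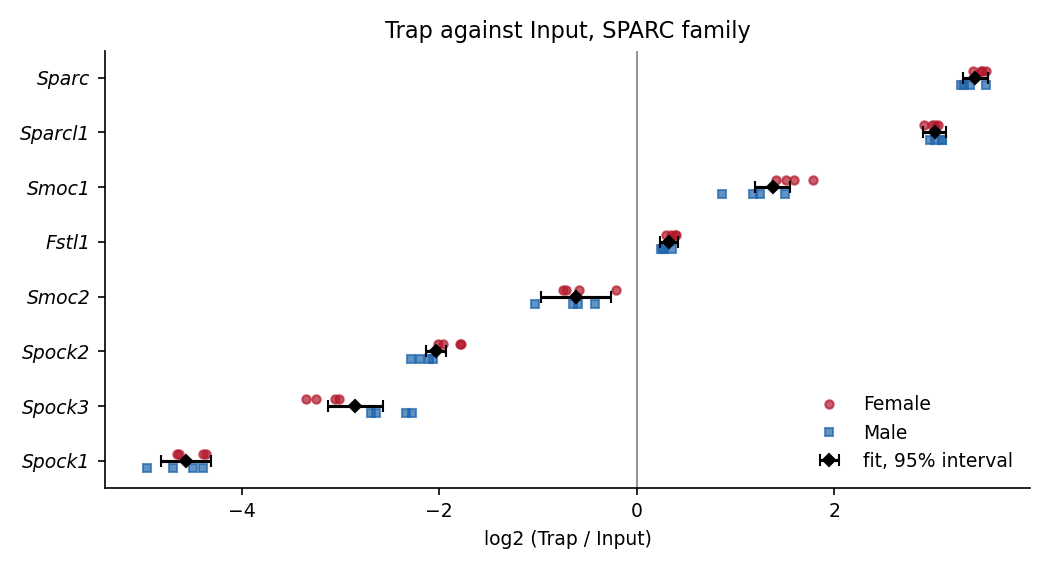
The horizontal axis is the log2 ratio of Trap to Input for each member, with small circles for females and squares for males in each of the 4 states, and diamonds with 95% intervals for the fit over 32 libraries. Sparc and Sparcl1 lie near 3 and above, Smoc1 spreads from 0.87 to 1.79, and Spock1 lies below -4.

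Sparcl1, the synapse-promoting hevin gene, was the second most abundant of all genes in Trap by mean CPM, at 23189 ± 2208 CPM (SD, n = 24) against 2856 ± 118 in Input (SD, n = 8). Its lowest, median and highest Trap libraries held 17012, 23537 and 26454 CPM, and its Input libraries 2719, 2856 and 3020. The lowest Trap library was thus far above the highest Input library, and the fit put the difference at 3.02 ± 0.0566 on the log2 scale (SE; adjusted p = 4.50e-33, edgeR quasi-likelihood test). Sparc, which counters hevin and binds collagen, ranked 7 in Trap at 12271 ± 1206 CPM against 1139 ± 89.2 in Input. Its Trap libraries ran from 9838 through a median of 12496 to 14804 CPM and its Input libraries from 1030 through 1110 to 1285, with no overlap. The log2 difference of Sparc was 3.43 ± 0.0623 (adjusted p = 2.19e-33, edgeR). Together the 8 genes took 2.81% to 3.57% of all counts in a Trap library and 0.720% to 0.754% in an Input library, almost all of it from Sparc and Sparcl1.

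Smoc1, the BMP modulator, was a gene of middling abundance in Trap, at 33.8 ± 7.82 CPM against 12.8 ± 1.79 in Input. The lowest, median and highest values were 23.8, 32.5 and 59.8 CPM in Trap and 10.2, 13.1 and 15.3 CPM in Input, so the fractions did not overlap. The log2 difference was 1.38 ± 0.0865 (adjusted p = 3.41e-17, edgeR). In females the 4 ratios of state means ran from 1.41 to 1.79 and in males from 0.87 to 1.5 on the log2 scale, with the lowest in uninjured males.

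Fstl1 stood at 131 ± 9.21 CPM in Trap and 104 ± 6.07 in Input, and its libraries ran from 116 to 147 and from 93.3 to 114 CPM, without overlap. The log2 difference was 0.32 ± 0.0450 (adjusted p = 3.20e-08, edgeR). With DESeq2 size factors in place of TMM the median of all genes moved from 0.01 to -0.12, and Fstl1 moved with it to 0.20 (adjusted p = 0.000123, edgeR), with the call kept. Smoc2, the close relative of Smoc1, was close to the floor of detection, with 6 to 35 counts in a Trap library and 22 to 40 in an Input library. It stood at 0.77 ± 0.31 CPM in Trap and 1.17 ± 0.17 in Input, and the libraries of both fractions overlapped. Its log2 difference of -0.61 ± 0.175 passed the test (adjusted p = 0.00160, edgeR), but with the replicate number as a block it was -0.45 ± 0.227 and did not (adjusted p = 0.0653, edgeR). All Input libraries carry number 1, so with the block only Trap replicate 1 is set against Input.

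All 3 testicans were lower in Trap. Spock2 held 1178 ± 102 CPM in Input (1083 to 1323) and 290 ± 28.7 in Trap (253 to 363), at a log2 difference of -2.03 ± 0.050 (adjusted p = 9.32e-30, edgeR). Spock1 held 277 ± 9.31 CPM in Input (266 to 296) and 11.7 ± 3.61 in Trap (5.99 to 23.2), at -4.56 ± 0.122 (adjusted p = 2.46e-25, edgeR). Spock3 held 108 ± 35.3 CPM in Input (61.8 to 148) and 14.6 ± 4.18 in Trap (5.65 to 23.2), at -2.85 ± 0.137 (adjusted p = 2.32e-18, edgeR). None of the 3 had a Trap library as high as its lowest Input library. Spock2 nevertheless remained the third most abundant member in Trap.

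Per kilobase of exon, the order of the Trap levels was Sparcl1 (7895 CPM per kb), Sparc (3239), Spock2 (52.3), Fstl1 (26.6), Smoc1 (9.66), Spock3 (2.41), Spock1 (1.40) and Smoc2 (0.110). Of the neighbours in that order, Spock3 and Spock1 had overlapping library ranges, and the other pairs did not overlap. In Input the order per kilobase of exon was Sparcl1 (972 CPM per kb), Sparc (301), Spock2 (213), Spock1 (33.1), Fstl1 (21.3), Spock3 (17.8), Smoc1 (3.66) and Smoc2 (0.169), with Fstl1 and Spock3 overlapping. Dividing by the longest transcript instead left the Trap order as it was, but the ranges of Sparcl1 and Sparc, and of Smoc1 and Spock3, then overlapped, and Spock3 passed Fstl1 in Input.

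The sequence just upstream of the start is shown for the genes at the ends of the enrichment scale, Sparc and Spock1, and for Fstl1 near its middle, so that the levels can be set beside the promoters. Each run holds the 250 bases before the RefSeq start (GRCm38.p6), 5′ to 3′ on the gene's strand, and capitals mark a GC box, GGGCGG on either strand.
Sparc, chr11:55420081-55420330, minus strand: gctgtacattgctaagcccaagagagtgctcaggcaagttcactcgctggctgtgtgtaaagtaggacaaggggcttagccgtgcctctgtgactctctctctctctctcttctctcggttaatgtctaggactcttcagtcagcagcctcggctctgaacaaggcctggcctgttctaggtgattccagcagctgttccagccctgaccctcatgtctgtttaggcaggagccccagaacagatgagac
Fstl1, chr16:37776805-37777054, plus strand: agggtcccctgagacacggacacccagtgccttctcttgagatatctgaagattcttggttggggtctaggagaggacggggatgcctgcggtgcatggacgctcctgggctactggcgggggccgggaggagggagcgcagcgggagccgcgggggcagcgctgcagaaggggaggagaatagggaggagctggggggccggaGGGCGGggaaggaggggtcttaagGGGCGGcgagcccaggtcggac
Spock1, chr13:57908333-57908582, minus strand: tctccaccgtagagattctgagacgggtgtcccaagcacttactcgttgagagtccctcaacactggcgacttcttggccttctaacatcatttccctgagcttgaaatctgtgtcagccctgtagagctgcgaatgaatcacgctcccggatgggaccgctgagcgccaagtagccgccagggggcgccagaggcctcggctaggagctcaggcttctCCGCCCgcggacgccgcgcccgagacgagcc
The Sparc stretch held 54.0% G and C with 4 CpG dinucleotides and no GC box. Fstl1 held 68.0% with 16 CpG and 2 GC boxes, and Spock1 held 61.2% with 20 CpG and 1 GC box. Over all 32851 promoters of the table the median was 52.4% with 6 CpG, and 32.7% held a GC box. The TATA box (TATAAA), the CCAAT box (CCAAT) and a SOX motif (ACAAAG), searched on both strands and found in 12.4%, 33.8% and 16.5% of all promoters, were in none of the 3 stretches. CpG count did not order the members by enrichment, since Spock2 held 7 CpG and the 2 entries of Spock3 held 2 and 3, all without a GC box. In GRCm38 the genes lie on chromosome 11 from 55394500 to 55423183 (Sparc, ENSMUSG00000018593.13), chromosome 16 from 37776873 to 37836514 (Fstl1, ENSMUSG00000022816.11) and chromosome 13 from 57421195 to 57908332 (Spock1, ENSMUSG00000056222.15). By these GENCODE positions the Sparc stretch and most of the Fstl1 stretch lie inside their genes, whose outermost starts are upstream of the RefSeq starts used. The stretches thus describe the sequence before the RefSeq starts only. Smoc1 (ENSMUSG00000021136.13) lies on chromosome 12 from 81026808 to 81186414, plus strand.

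Smoc1 stood higher in Trap at every time after fracture than before it, with the highest mean at 3 weeks. In uninjured cords it was at 27.8, 27.9 and 28.5 CPM in females and 27.2, 23.8 and 25.5 in males. At 3 weeks it was at 47.5, 59.8 and 33.5 CPM in females and 41.4, 34.0 and 33.2 in males. All 6 libraries at 3 weeks lay above all 6 uninjured ones, and the spread among females was wide, with replicate 3, a library that stood apart, the lowest of them. At 5 weeks the values were 36.5, 39.7 and 32.2 CPM in females and 31.5, 31.4 and 32.9 in males, again all above the uninjured libraries. At 7 weeks they were 38.7, 35.5 and 34.6 CPM in females and 28.7, 26.0 and 32.2 in males, and 5 of 6 exceeded the highest uninjured library, the exception being male replicate 2, which also stood apart. How many of all genes separate in this way is not given here, so these separations are a description only. Those at 3 weeks rest on the values by which Smoc1 was chosen, and the later times share the uninjured libraries. The means were 26.8 ± 1.78 uninjured, 41.6 ± 10.6 at 3 weeks, 34.0 ± 3.37 at 5 weeks and 32.6 ± 4.68 CPM at 7 weeks (SD, n = 6 each).

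**Figure D2:**
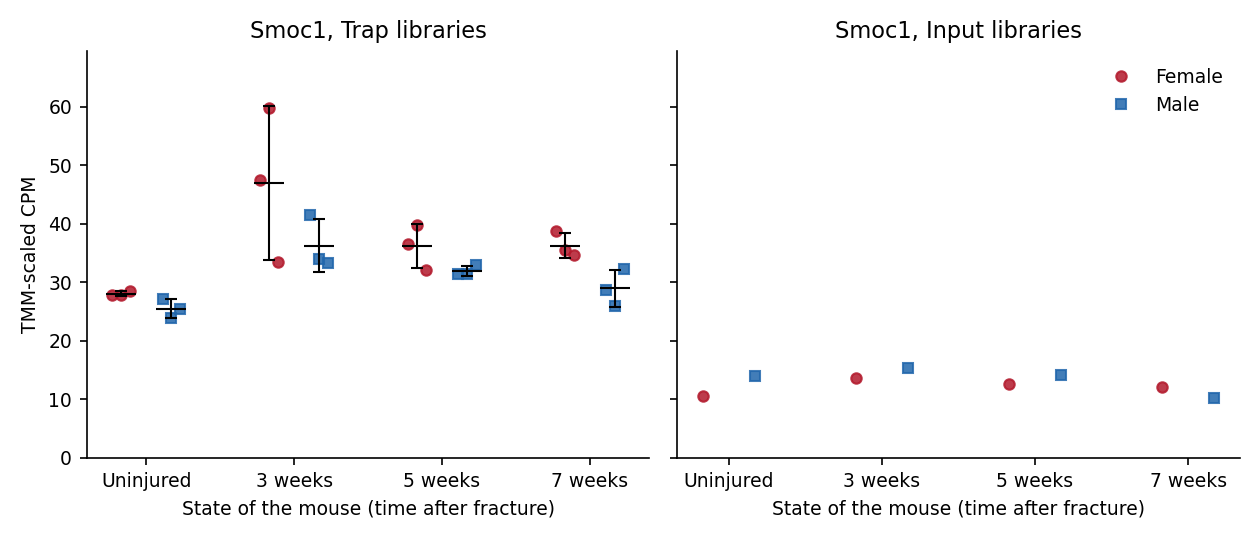
Points are single libraries, circles for females and squares for males, with the mean and SD of 3 Trap libraries drawn as bars; the vertical axis is TMM-scaled CPM and the horizontal axis the state. In Trap every library at 3 and 5 weeks lies above the highest uninjured library at 28.5 CPM, a description given without the share over all genes. In Input the 8 libraries lie between 10.2 and 15.3 CPM.

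At 3 weeks the log2 difference of Smoc1 from uninjured was 0.62 ± 0.102 (SE), and 0.72 ± 0.0771 without the libraries that stood apart. It was 0.74 ± 0.142 in females and 0.50 ± 0.145 in males. These are the values behind the choice of Smoc1, in a comparison where 17 of 15380 genes (0.111%) passed the test, and nothing is read from them. At 5 weeks the log2 difference was 0.35 ± 0.102 and at 7 weeks 0.28 ± 0.103. Neither passed the edgeR quasi-likelihood test after adjustment (adjusted p = 1.00 for both), and neither did any other gene in those comparisons (0% of 15380). Smoc1 was the 1 member with an unadjusted p under 0.05 at either time, and DESeq2 called 0 members at both. Across all genes 425 at 5 weeks and 438 at 7 weeks had an unadjusted p under 0.05. The 3 times share their uninjured libraries, so the higher values at 5 and 7 weeks are not independent of those at 3 weeks. Against 3 weeks, Smoc1 at 5 and 7 weeks together was at -0.31 ± 0.0858, a value that also uses the libraries on which Smoc1 was chosen and has no test. Over the same libraries the summed astrocyte markers ran from 59853 to 67541 CPM uninjured and from 50884 to 66348 at 3 weeks, with the gap junction gene Gja1 at -0.33 ± 0.0645 on the log2 scale (adjusted p = 0.0267, edgeR), the 1 of 12 that passed. The neuron markers ran from 385 to 614 and from 298 to 941 CPM. The OPC markers ran from 3055 to 3462 and from 2447 to 3340 CPM, a sum made up mostly of Bcan and Olig1 (medians of 2007 and 828 CPM over all Trap libraries), which were themselves higher in Trap. The part of these in the Smoc1 values was not tested.

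No sex difference of the fracture effect passed the test at 5 or 7 weeks. The sex difference of the Smoc1 effect, males minus females, was -0.05 ± 0.205 at 5 weeks (95% interval -0.47 to 0.37) and -0.19 ± 0.206 at 7 weeks (-0.62 to 0.23), with adjusted p = 0.997 and 1.00 (edgeR), and 0 members passed (0% of 15380 genes, DESeq2 0 members). Within females the difference from uninjured was 0.37 ± 0.144 at 5 weeks and 0.37 ± 0.143 at 7 weeks. Within males it was 0.32 ± 0.146 and 0.18 ± 0.147. None of these passed the adjusted test, nor did any other gene within either sex (0%). Smoc1 had an unadjusted p under 0.05 in females at 5 and 7 weeks and in males at 5 weeks. So did 3.87%, 2.45% and 2.20% of all genes tested, in that order. These comparisons share the uninjured libraries on which Smoc1 was chosen, so they are not independent of that choice. DESeq2 called 0 members.

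The other 7 members had smaller fitted differences from uninjured than Smoc1 at each time in Trap, except that Smoc2 at 7 weeks went from -0.24 ± 0.351 to -0.42 ± 0.389 without the libraries that stood apart. Smoc1 was chosen for its 3 week difference, and the later times share the uninjured libraries. Its place among the members was thus favoured by the choice, and nothing is read from it. Sparcl1 had its lowest state mean at 3 weeks, with a lowest, median and highest of 17012, 21252 and 23942 CPM against 22992, 24228 and 25656 uninjured. There 4 of 6 libraries lay below every uninjured one, the lowest being female replicate 3, and the groups overlapped. Its log2 difference was -0.21 ± 0.0759 at 3 weeks, -0.06 ± 0.0758 at 5 weeks and -0.00 ± 0.0758 at 7 weeks. Sparc was at -0.00 ± 0.0788, -0.16 ± 0.0788 and -0.02 ± 0.0788 at the same times. Spock2 was at -0.16 ± 0.0739, -0.12 ± 0.0739 and -0.00 ± 0.0738, and Fstl1 at 0.02, -0.03 and -0.03, with an SE of 0.0671 or less. With all 24 libraries Spock1, Spock3 and Smoc2 had SEs from 0.253 to 0.351, and their values between -0.24 and 0.23 lay within 1 SE of 0. At 5 and 7 weeks no member passed the test, and all 7 overlapped the uninjured libraries at each time.

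**Figure D3:**
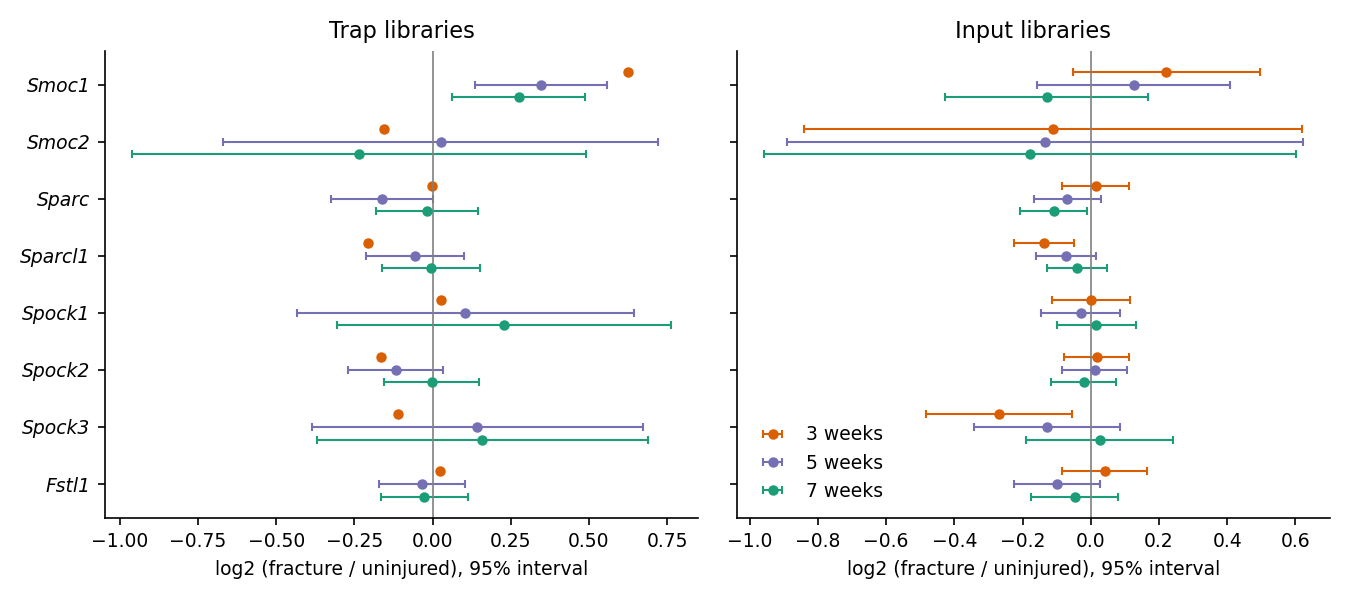
Points are log2 differences from uninjured, with unadjusted 95% intervals, for each member at 3, 5 and 7 weeks, in the Trap fit of 24 libraries and the Input fit of 8 libraries. In Trap the 3 week values are drawn without intervals, since Smoc1 was chosen on them, and no difference at 5 or 7 weeks passed the adjusted test.

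In whole cord no Smoc1 difference from uninjured passed the test. Its Input libraries held 10.6 (female) and 14 CPM (male) uninjured, 13.6 and 15.3 at 3 weeks, 12.6 and 14.1 at 5 weeks, and 12 and 10.2 at 7 weeks. The states overlapped, and the log2 differences were 0.22 ± 0.130, 0.13 ± 0.134 and -0.13 ± 0.141 (adjusted p = 0.487, 0.822 and 0.976, edgeR). The 95% interval at 3 weeks was -0.05 to 0.50. Smoc1 was chosen on its 3 week values in Trap, and the difference between fractions was not tested. No member passed at 3 weeks, when 1.08% of the 16803 genes tested did, at 5 weeks (0.107%) or at 7 weeks (0.214%), and DESeq2 called 0 members at each time. At an unadjusted p under 0.05 there were 2 members at 3 weeks, 0 at 5 weeks and 1 at 7 weeks. Of all genes tested, 13.9%, 8.49% and 5.87% were under it at those times, so nothing is read from these counts.

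Sparcl1 and Spock3 were those 2. Sparcl1 held 2756 (female) and 2719 CPM (male) at 3 weeks against 3020 and 2936 uninjured, at -0.14 ± 0.0413 (adjusted p = 0.134, edgeR). Spock3 held 134 and 61.8 CPM at 3 weeks against 148 and 81.1 uninjured, at -0.27 ± 0.0964 (adjusted p = 0.239). In both sexes each gene was lower at 3 weeks, without passing the adjusted test over all genes. Neither was called with all Input libraries, and each passed only when certain single libraries were left out. Sparcl1 reached adjusted p = 0.0464 without the female 7 weeks library and 0.0419 without the male one, and Spock3 reached 0.0425 without the female 7 weeks library and 0.0497 without the female 3 weeks library (edgeR). Sparc was the member at 7 weeks, with 1048 and 1104 CPM against 1113 and 1226, at -0.11 ± 0.0467 (adjusted p = 0.795, edgeR). Some marker sums also differed at 3 weeks in Input without overlap, with only 2 libraries on each side. The neuron, OPC, fibroblast and mural, Schwann cell and blood cell sums overlapped. The astrocyte markers summed to 7522 and 7687 CPM (female, male) against 7917 and 7844 uninjured, with 4 of 12 called lower, among them Gjb6 (-0.59 ± 0.0758), Gja1 (-0.29 ± 0.0553) and S100b (-0.24 ± 0.0499). The oligodendrocyte sum was 16216 and 15573 CPM against 18618 and 17523, the microglia sum 331 and 369 against 266 and 322, the endothelial sum 98.6 and 92.6 against 75.4 and 83.0, and the ependymal sum 37.4 and 44.2 against 30.3 and 35.4. Their part in the Sparcl1, Spock3 and Sparc values was not tested.

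Between the sexes, no member passed in Trap, where 0.195% of 15380 genes did, and DESeq2 called 0 members. Smoc1 came nearest and was the 1 member with an unadjusted p under 0.05, as 9.79% of all genes tested had. Its male libraries ran from 23.8 through a median of 31.4 to 41.4 CPM and its female libraries from 27.8 through 35.0 to 59.8, so the sexes overlapped, and the male mean was the lower in each of the 4 states. The log2 difference of males from females was -0.26 ± 0.0717 (adjusted p = 0.202, edgeR). Without both libraries that stood apart it was -0.29 and passed the test (adjusted p = 0.0145), and so it did without female 3 weeks replicate 3 alone (-0.31, adjusted p = 0.0170). The call thus depended on 1 library of 24. The Trap column headers differed by sex in style or prefix, so sex cannot be told apart from whatever else they mark.

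In Input the sexes differed for many genes, Spock3 and Spock2 among them, and this comparison was added after the Spock3 values had been seen. The female libraries held 148, 134, 139 and 139 CPM of Spock3 in the order uninjured, 3, 5 and 7 weeks, and the male libraries 81.1, 61.8, 71.3 and 88.5. Every male library lay below every female library, and males were 1.92-fold lower, at -0.94 ± 0.0690 on the log2 scale (adjusted p = 1.62e-06, edgeR). Spock2 ran the other way, with 1083, 1086, 1090 and 1094 CPM in females and 1269, 1323, 1279 and 1203 in males, at 0.18 ± 0.0321 (adjusted p = 0.000241, edgeR). Sparc was higher in males by 0.12 ± 0.0330 (adjusted p = 0.00696) and Sparcl1 lower by 0.10 (-0.10 ± 0.0292, adjusted p = 0.00689), and both lost the call without the female or the male 5 weeks library (adjusted p from 0.0535 to 0.0745, edgeR). The 4 calls of 8 stand beside 46.2% of all 16803 genes tested, 22.9% higher and 23.3% lower, so their number is near the background. Among those genes Spock3 was 658th from the most male-low end.

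The female and male Input columns also carried different header styles, so that sex cannot be told apart from whatever distinguished those sets. Marker sums moved with sex in Input too. The neuron markers summed to 7613 to 8034 CPM in females and 6895 to 7421 in males, and the blood cell genes to 261 to 317 and 189 to 253. The OPC markers summed to 667 to 731 and 795 to 818, and the Schwann cell markers to 7379 to 8041 and 9089 to 9955. None of these overlapped, while the sums of the other lists did. Within the neuron, OPC and Schwann cell lists the called genes divided. Tubb3 (0.30), Olig1 (0.36) and Mbp (0.23, in the Schwann cell list) were higher in males, and Slc17a6 (-0.54), Vcan (-1.03) and Cdh19 (-1.32) lower. The part of these lists in the Spock3 and Spock2 values was not tested. In Trap, Spock3 ran from 7.78 to 23.2 CPM in females and from 5.65 to 17.9 in males, at -0.22 ± 0.180 (adjusted p = 0.710, edgeR). Spock2 was at -0.06 ± 0.0522 there (adjusted p = 0.752). Whether the sex difference itself differed between Input and Trap was not tested.

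**Figure D4:**
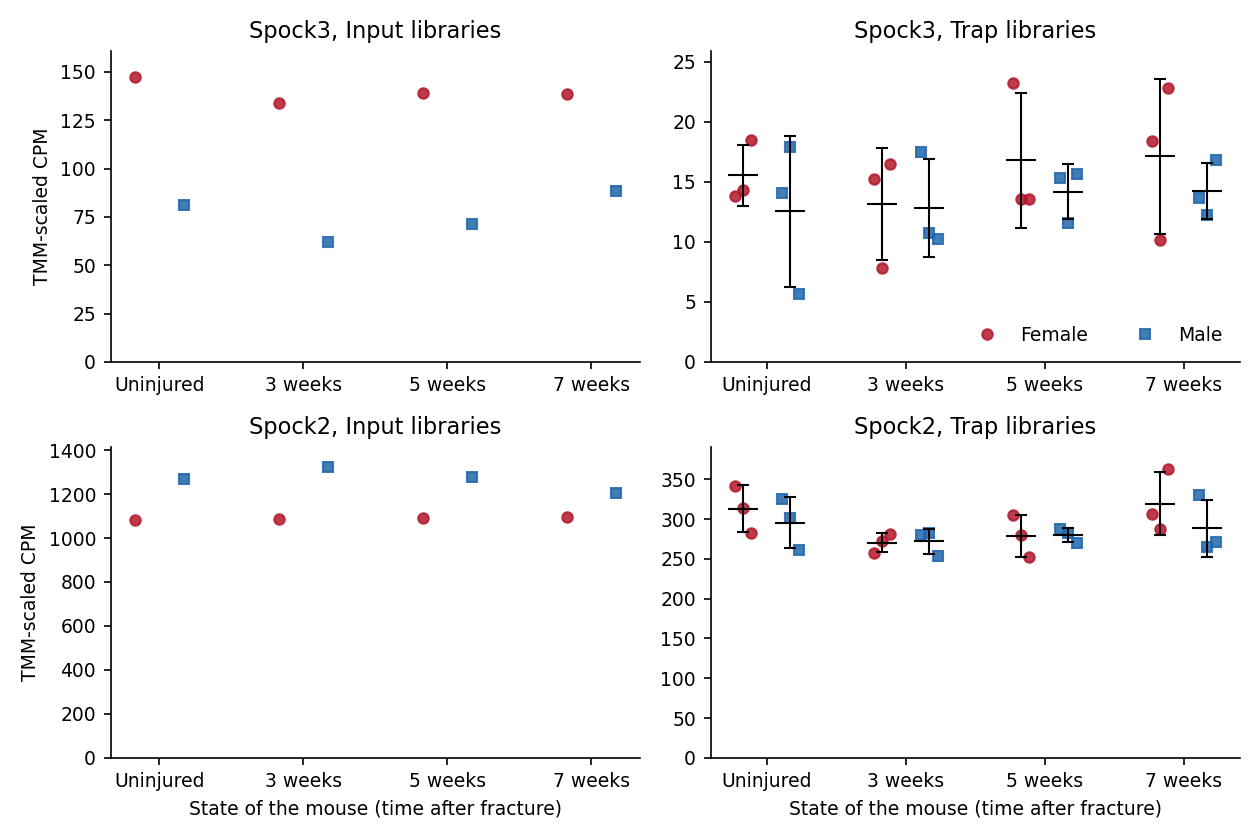
Levels of Spock3 (top) and Spock2 (bottom) in TMM-scaled CPM by state, in Input (left, 1 library per sex and state) and Trap (right, 3 libraries with mean and SD); circles are females and squares males. In Input the male Spock3 libraries at 61.8 to 88.5 CPM all lie below the females at 134 to 148, and in Trap the sexes overlap.

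Among the 24 Trap libraries the members varied to different degrees. The SD of log2 CPM within groups of the same sex and state was 0.11 for Fstl1, 0.13 for Spock2, 0.14 for Sparcl1 and for Sparc, 0.18 for Smoc1, 0.36 for Smoc2, 0.47 for Spock1 and 0.48 for Spock3. The testicans Spock1 and Spock3 were thus the most variable in the fraction from which they were depleted. Spock1 was at 23.2 CPM in female 3 weeks replicate 3, where the 10 neuron markers summed to 941 CPM, and at 5.99 in replicate 2 of that group, where they summed to 298. Spock3 was lowest, at 5.65 CPM, in male uninjured replicate 3, where the neuron markers summed to 385. The oligodendrocyte markers summed to 4198, 2423 and 2333 CPM in these libraries, in the same order. Over all Trap libraries that sum ran from 2333 to 5719 CPM. Without the libraries that stood apart the 3 week difference of Spock1 went from 0.03 ± 0.260 to -0.34 ± 0.218. In Input the neuron markers summed to 6895 to 8034 CPM and the oligodendrocyte markers to 15573 to 18618. The part of carried-over RNA of either kind in the Trap levels of Spock1 and Spock3 was not tested.

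**Figure D5:**
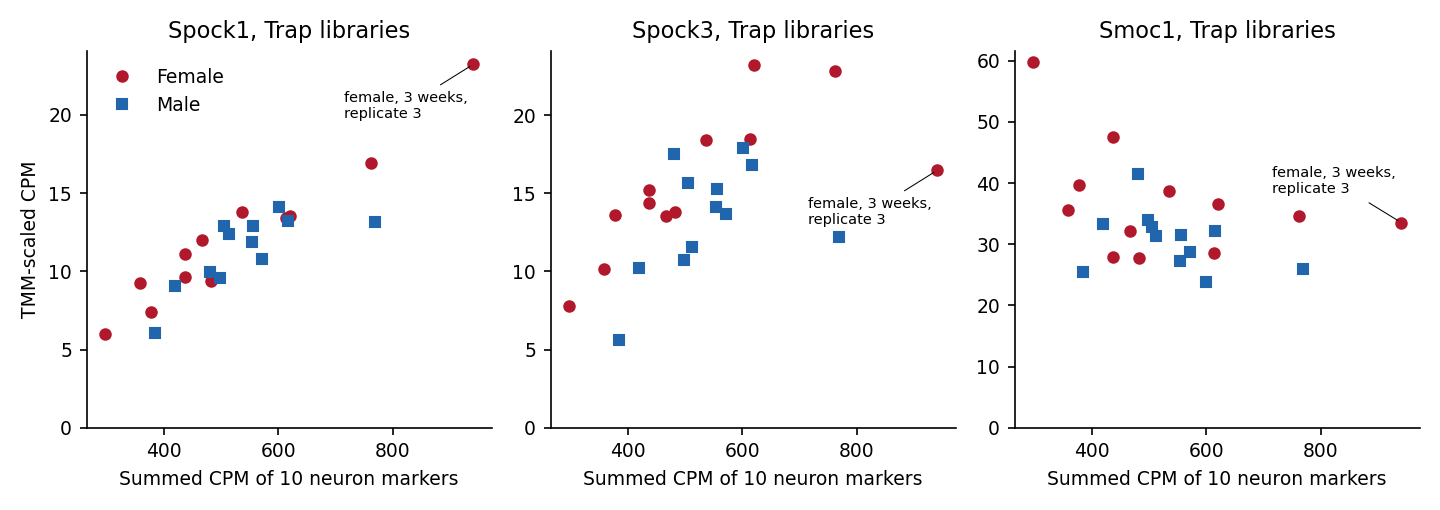
Each point is a Trap library, with the summed CPM of 10 neuron markers on the horizontal axis and the CPM of Spock1, Spock3 or Smoc1 on the vertical axis; circles are females and squares males. Spock1 runs from 5.99 CPM at a neuron sum of 298 to 23.2 CPM at 941, and Smoc1 is at its highest, 59.8 CPM, in the library with the lowest sum.

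After removing each group's mean, Sparc and Sparcl1 varied together most among member pairs (Pearson r = 0.88 over 24 libraries), followed by Spock1 and Spock3 (0.78) and by Spock2 and Fstl1 (0.63). Smoc1 and Spock1 varied in opposite directions (-0.64). These are descriptions over libraries that also differ in depth and in their marker sums. The genes most like Smoc1 by the same measure, of 8691 genes at 10 CPM or more in Trap, were C2cd3 (0.88), Acsf2 (0.88), Prelp (0.87), Srebf1 (0.86) and Bcas3 (0.86). Without the 2 most extreme Smoc1 libraries these were 0.82, 0.66, 0.74, 0.63 and 0.62. Prelp encodes a matrix proteoglycan, Srebf1 a regulator of lipid synthesis and C2cd3 a centriole protein.

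In the BMP pathway, which Smoc1 modulates, target genes and receptors were mostly higher in Trap and antagonists were divided. Of 13 BMP Smads and target genes 12 were higher in Trap and 1 lower, with a median log2 difference of 2.16 against 0.01 over all genes tested. Examples were the transcription factor gene Id2 (3.30 ± 0.0977, 445 CPM in Trap against 45.1), Hey2 (3.16 ± 0.0789) and Hey1 (2.24 ± 0.0599). Of 15 ligands and receptors 10 were higher and 4 lower (median 0.58), led by the receptors Bmpr1b (3.15 ± 0.0865) and Bmpr1a (2.30 ± 0.0687) and the ligand Gdf10 (2.79 ± 0.0957). BMP antagonists divided, with 4 of the 10 tested higher, such as Nbl1 (2.65 ± 0.0793), and 6 lower, such as Bmper (-2.91 ± 0.0811). Their median was -1.54.

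The partners of the family divided as well. Of 11 hevin partners and SPARC receptors 7 were higher and 3 lower (median 0.65), with the adhesion gene Vcam1 at 3.55 ± 0.0698, the neuroligin Nlgn2 at -1.69 ± 0.0469 and the scavenger receptor Stab1 at -3.16 ± 0.114. Of the 7 collagens bound by SPARC 4 were higher, among them Col1a2 (3.30 ± 0.0926, 222 CPM in Trap against 22.4) and Col5a2 (1.27 ± 0.149), and 3 lower, among them the basement membrane gene Col4a2 (-1.07 ± 0.0915), with a median of 0.87. Of 12 matrix proteases and inhibitors 5 were higher and 7 lower (median -1.35), with the inhibitors Timp4 (3.04 ± 0.0682) and Timp3 (2.99 ± 0.0727) up and Timp2 (-2.17 ± 0.0487) down in Trap. Among other matricellular genes 5 of the 21 tested were higher and 13 lower (median -1.23). The thrombospondin Thbs2 was higher (3.17 ± 0.0850), while the follistatin-like genes Fstl5 (-4.22 ± 0.103) and Fstl4 (-4.58 ± 0.129) were lower. All calls in these lists are at an adjusted p under 0.05 in the edgeR fit, beside the 88.0% of all genes that passed.

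None of these list genes changed with fracture at the adjusted threshold. Of 80 tested in Trap, 0 were called at 3, 5 or 7 weeks, beside 0.111%, 0% and 0% of all genes, with 0 called by DESeq2. An unadjusted p under 0.05 was held by 11, 2 and 4 of them, beside 8.64%, 2.76% and 2.85% of all genes tested (edgeR). Between the sexes in Trap 0 of 80 were called by either tool, and 9 had an unadjusted p under 0.05 (9.79% of all genes). In Input 0 of 93 were called at any time by either tool, and 15, 8 and 8 had an unadjusted p under 0.05, beside 13.9%, 8.49% and 5.87% of all genes tested. Between the sexes in Input 33 of 93 were called, 13 higher and 20 lower in males (edgeR; DESeq2 called 26), beside 46.2% of all genes.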

How the data were processed

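RNA was measured by sequencing of poly-A selected libraries, per the labels' protocols, in 24 Trap and 8 Input libraries. The authors deposited expected counts per gene from RSEM, and 6.21% to 8.53% of a library's values were not whole. The submitters' processing notes name FastQC, Trim Galore, STAR and RSEM as tools and GRCm38 as the genome build, while tool versions and the annotation release are not given in the sources used here. Reads shared by similar or overlapping genes are divided among them by RSEM, and whether counting used strand is not stated. The antisense gene Gm26703, which overlaps Sparcl1, held 2.97 CPM in Trap and 3.97 in Input.

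Rounded counts entered the 2-sided quasi-likelihood test of edgeR 4.0.16 (R 4.3.3) after filterByExpr and TMM, with robust glmQLFit. Benjamini-Hochberg adjustment covered all genes tested, and a call is an adjusted p under 0.05. All Trap comparisons came from 1 fit of 24 libraries with a mean per sex and state (15380 genes, 16 residual degrees of freedom). Trap against Input used all 32 libraries with sex and state as terms (16804 genes, 26 residual degrees of freedom). Input was fitted alone with sex as a term (16803 genes, 3 residual degrees of freedom), so its tests rest on few libraries. The 8 members all passed the filter on low counts in each fit. Levels are CPM scaled by TMM over 32 libraries, and lengths and positions are from GENCODE M21, which held 97.9% of the transcripts in the deposited tables. Symbols were matched to 55141 of 55938 identifiers. Promoters came from RefSeq, in which 5 of the 8 members were found.

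The members and the 18 lists of pathway and marker genes were chosen with earlier results of these data known. The text names all 8 members in every comparison, up to 3 called genes with the smallest p from each pathway list, and the 5 genes most like Smoc1. A gene that this rule would name is not reported here. Alternatives were DESeq2 1.42.0 and its size factors, no filter, replicate number as a block, only the states compared, only Trap replicate 1, the fit without the libraries that stood apart, and leaving out each library. The fit was tested on simulated data.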

Additional observations from a re-analysis of the deposited data

Results flagged for a closer look

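Of 40 groups of libraries (6 Trap libraries of a state, or the 8 Input libraries) examined for a single value far from the rest, 6 held one, where chance flags about 1 in 20 independent groups. These groups share libraries and pool the sexes, so the count was not compared with chance. In 5 of the 6 the gene was Spock1 or Spock3. Spock1 stood at 23.2 CPM in female 3 weeks Trap replicate 3, at 7.39 CPM in female 5 weeks Trap replicate 2, and at 296 CPM in the male 3 weeks Input library. Spock3 stood at 5.65 CPM in male uninjured Trap replicate 3 and at 23.2 CPM in female 5 weeks Trap replicate 1. Smoc2 stood at 1.74 CPM in male 5 weeks Trap replicate 3. Neuron markers in the 4 Trap libraries with a distant Spock1 or Spock3 value summed to 941, 378, 385 and 620 CPM, in that order of library. Oligodendrocyte markers there summed to 4198, 3654, 2333 and 5380 CPM, and the part of either list was not tested.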

How the results depend on the processing

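Over all alternatives the sign held for 2916 of 3104 member values and turned for 188. The turns fell in 54 of 120 combinations of member and comparison, none of which was called, and whose value with all libraries was at most 1.1 SE from 0. Of 1887 tested member values 11 changed side of the threshold. Of 286 summary values 281 stayed within 1.5 times (counts of members called) or 1 SD (Smoc1 differences with no test). The 3 week Smoc1 difference in Trap ran from 0.53 (without female 3 weeks replicate 2) to 0.72 when single libraries were left out, and the 5 and 7 against 3 week value from -0.41 to -0.21. Members called between the sexes in Trap went from 0 to 1 without the libraries that stood apart, and ran from 0 to 1 over single libraries left out (1 without female 3 weeks replicate 3). Members called at 3 weeks in Input ran from 0 to 2, with 1 without the female 3 weeks or the male 7 weeks library and 2 without the female 7 weeks library. Among the turns was that of Smoc2 at 5 weeks in Trap without male 5 weeks replicate 3 (-0.36, in a range up to 0.17 over single libraries left out). The Smoc2 sex difference at 7 weeks turned without the libraries that stood apart (-0.32) or without male 7 weeks replicate 2 alone (-0.32, in a range up to 0.63). Smoc1 at 7 weeks in Input turned without the male uninjured (0.06) or male 7 weeks library (0.10). The SEs of these values with all libraries were 0.337, 0.709 and 0.141, in that order. Smoc1 at 5 weeks in Input ran from -0.04 to 0.32, and in Trap Spock3 at 3 weeks ran from -0.28 to 0.09 and Spock1 at 3 weeks from -0.34 to 0.20. The cause was not tested.

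Counts over all genes depended more on the settings than the members did. At 3 weeks in Trap 17 genes were called, 34 with no filter, 130 with DESeq2, 106 without the libraries that stood apart and 3 to 57 over single libraries left out. For 5 and 7 against 3 weeks the counts were 14, 37, 97, 111 and 1 to 86, for 5 weeks against 3 weeks 2, with 14 by DESeq2 and 24 without those libraries, and for 7 weeks against 3 weeks 3, with 9 under no filter, 57 and 51. Between the sexes in Trap 30 became 88 with DESeq2 and 46 without those libraries, and 18 to 47 over single libraries left out. Input counts over single libraries left out ran from 34 to 346 at 3 weeks (182), 7 to 49 at 5 weeks (18) and 16 to 50 at 7 weeks (36). DESeq2 called 1 gene at 5 weeks in Trap and 1 in each sex difference of a fracture effect, where edgeR called 0.

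Trap libraries with the same replicate number and sex had correlated deviations from -0.12 to 0.52, over 0.1 in 24 of 36 pairs, with a median of 0.155, against -0.0659 and 7 of 72 pairs for a different number in the same sex, and 16 of 24 libraries correlated best with their own number. Column headers also carry a prefix by number and sex. The labels do not say what a number marks, and not every pair passed 0.1, the rule for a block in the reported fits, so these counts are given without it. With the replicate block, 44 genes were called at 3 weeks, 45 for 5 and 7 against 3 weeks, 5 for 5 against 3 weeks and 11 for 7 against 3 weeks. A replicate block within each sex, added after seeing the data, gave 77, 81, 7 and 50. Its terms are nested in sex, so its sex comparison sets only the level of number 1 in males against that in females. There 12 genes were called and Smoc1 was at -0.22 (adjusted p = 0.999, edgeR), which is not a sex difference adjusted for the block. With the replicate block Smoc2 was at -0.45 in Trap against Input (adjusted p = 0.0653, edgeR), and the other 7 members were called as before. Since all Input libraries carry number 1, that fit sets only Trap replicate 1 against Input. The block was not fitted within Input, which has 1 library per sex and state. Depth limits Smoc2 most, at 6 to 35 counts in a Trap library.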
